A study of Arabidopsis thaliana with 6 samples.

Results

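A set of 106 ATH1 probe sets was high in replicate 1 of both genotypes of an Arabidopsis root tip series. The members were chosen from the deposited log2 signals. A probe set was taken where the lower of the 2 replicate 1 arrays, the mutant and the Col er-2 one, exceeded the highest of the other 4 arrays by 0.5 log2 or more. That held for 107 of 22746 probe sets without controls (0.470%), and AT2G47550, a gene of the pectin methylesterase and inhibitor families, was left out by name. Genes of sugar transport, glycosyl transfer and wall synthesis families and organelle genes were also to be left out by name, and 0 probe sets bore such a name. Because these values chose the set, the height of replicate 1 is given below as a description with no test.

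One genotype was the mutant that joins the alleles athb8-11, cna-2, phb-13 and phv-6 of class III HD-ZIP transcription factor genes, with 3 arrays. It was set against Col er-2, also with 3 arrays. The er-2 allele is named in the labels for Col er-2, and the labels do not say whether the mutant carries it. All 6 samples were hand-cut primary root tips of 0.5 mm taken 4 days post germination, with about 200 tips pooled per replicate and 250 ng of total RNA labelled per array. Seedlings of both genotypes stood on 0.5X MS medium with 1% sucrose and 1% agar at 22 °C under 18 h light and 6 h dark, and received no treatment. No sugar withdrawal, dark period beyond the daily 6 h, harvest time or batch is recorded in the labels.

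Plant cells that run short of sugar activate SnRK1, a protein kinase related to AMPK of animals, which with bZIP transcription factors of the C and S1 groups turns on genes of catabolism and represses genes of growth. Classic targets are the dark-inducible genes, enzymes that break down branched-chain amino acids, and autophagy genes, while genes of ribosome making fall. A root tip makes no sugar of its own and lives on sucrose delivered through the phloem. The genes fixed as members, AT3G15450, AT3G15630 and AT2G32150, are used in many studies as markers of low sugar.

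AT2G32150 (265680_at), which encodes a hydrolase of the haloacid dehalogenase-like family, had the widest gap. Its log2 signal was 7.61, 5.33 and 5.45 on mutant replicates 1 to 3, against 7.83, 5.57 and 5.10 on Col er-2 replicates 1 to 3. Both replicate 1 arrays stood at least 2.04 log2 above every other array, a gap of 4.11-fold in signal, and the other 4 arrays lay close together, between 5.10 and 5.57. In pooled root tips, more cells of a type and more RNA per cell cannot be told apart, for this and every gene below.

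AT3G15630 (258225_at) had log2 signals of 8.76, 5.69 and 7.07 in the mutant, against 9.18, 6.56 and 6.72 in Col er-2, with a gap of 1.69. Mutant replicate 2 was well below the other lower arrays. AT3G15450 (258402_at), whose protein carries the YGL and LRDR motifs of aluminium-induced proteins, was the brightest member. It had log2 signals of 12.03, 8.55 and 10.50 in the mutant, against 12.23, 10.30 and 10.00 in Col er-2. Its gap was 1.53, and mutant replicate 2 was again the lowest array, 1.94 log2 below mutant replicate 3.

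**Figure D1:**
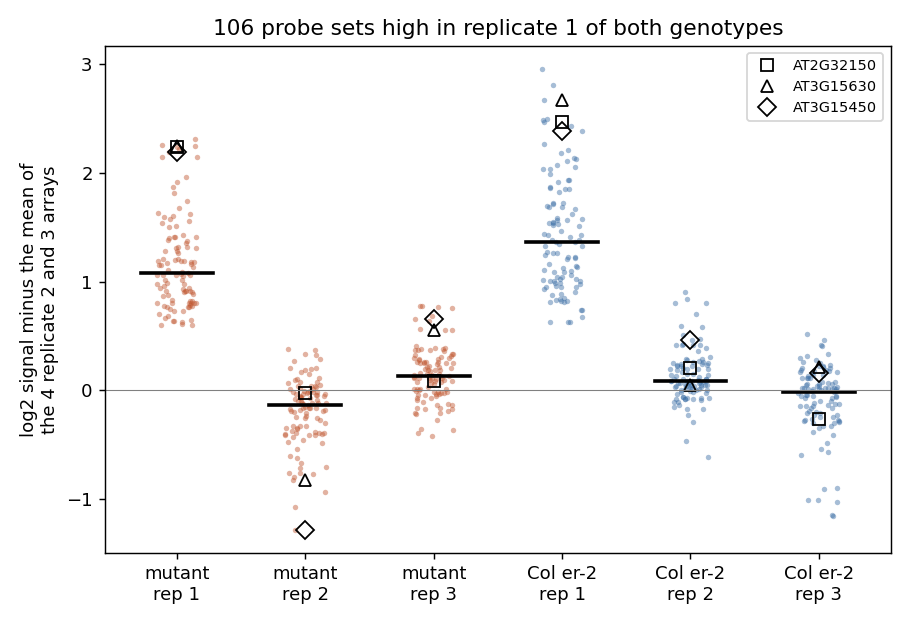
Log2 signal of each of the 106 members minus its mean over the 4 replicate 2 and 3 arrays, by array, mutant in red and Col er-2 in blue. Dots are probe sets, bars are medians and open symbols mark AT2G32150, AT3G15630 and AT3G15450, which sit low on mutant replicate 2 in the cases of AT3G15630 and AT3G15450.

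Of the 106 members, 51 named a single gene, 5 named several and 50 were not in the probe table. The unlisted members carry no gene name here and could not be checked against the families left out. The gap between the replicate 1 arrays and the highest other array ran from 0.50 to 2.04 log2 with a median of 0.69. It was 1 log2 or more in 19 members, of which 12 were named, and under 0.7 in 54. The members just inside the threshold were 263019_at, AT3G19390 and 253060_at, with gaps of 0.50, 0.50 and 0.51. Just outside lay 262730_at, 266072_at and AT3G51450, with 0.499, 0.495 and 0.494, so no step in the values separates the set from its surroundings.

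Replicate 1 minus the mean of replicates 2 and 3 of the same genotype, called the excess below, had a median over the members of 1.11 log2 in the mutant (0.52 to 2.56) and 1.39 in Col er-2 (0.53 to 3.34). As folds of signal these medians were 2.16 in the mutant and 2.62 in Col er-2. Over all probe sets the median excess was -0.04 in the mutant and -0.03 in Col er-2. The median member signal was 7.19, 5.77 and 6.27 on the mutant arrays and 7.60, 6.24 and 6.09 on the Col er-2 arrays. With replicate 1 set aside, the members were thus of middling brightness, and in 28 of them all 4 other arrays lay below every array median, where RMA compresses differences and no detection call was used.

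Genes of protein folding and turnover gave 6 members, with gaps of 0.50 to 1.40, and mutant replicate 1 was above Col er-2 replicate 1 in 0 of them. Col er-2 replicate 1 was the higher in 74.5% of all members and in 49.7% of all probe sets. AT1G56300, of the DnaJ chaperone family, had 7.18, 5.78 and 5.30 in the mutant, against 7.84, 5.77 and 5.44 in Col er-2. The lower 4 arrays of AT1G56300 did not separate by genotype. AT5G19120, of the aspartyl protease family, had 9.13, 7.12 and 7.96 in the mutant, against 9.43, 7.47 and 7.76 in Col er-2. AT3G47160, a RING finger gene, had 7.17, 5.37 and 6.04 in the mutant, against 7.30, 5.80 and 5.84 in Col er-2. In both AT5G19120 and AT3G47160 the lowest array was mutant replicate 2 and the highest of the other 4 was mutant replicate 3.

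Translation gave 3 members, with gaps of 0.71 to 1.18. AT5G54940, of the SUI1 family of translation initiation factors, had 7.995, 6.30 and 6.71 in the mutant, against 8.14, 6.81 and 5.85 in Col er-2. AT5G24490, which encodes a ribosome-associated protein of plastids, had 8.34, 5.72 and 7.25 in the mutant, against 8.53, 6.39 and 6.53 in Col er-2. Its mutant replicate 3 lay between replicate 1 and the rest, as in AT3G15450. AT4G14270, whose protein has a PAM2-like motif that binds poly(A)-binding protein, had a smaller gap of 0.71.

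AT2G20670, a DUF506 gene, had 7.84, 5.61 and 6.55 in the mutant, against 8.25, 6.47 and 6.22 in Col er-2, with the gap at 1.29. AT3G20340, AT2G18690 and AT3G45730, for which no role is given here, had gaps of 1.40, 1.02 and 0.93. AT5G40590, which encodes a protein with cysteine- and histidine-rich C1 domains, reached 5.47 on mutant replicate 1, against 5.53 on Col er-2 replicate 1, and lay between 3.91 and 4.27 on the other arrays. All 6 signals were below the array medians. A further gene of that domain, AT2G44370, and the heavy-metal-associated domain genes AT5G52750 and AT5G03380 had gaps of 0.57, 0.81 and 0.57.

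Among members with no gene name here, 246114_at and 261901_at had the widest gaps, 1.65 and 1.55. The first had 10.75, 7.89 and 8.99 in the mutant, against 10.64, 8.58 and 8.94 in Col er-2. The other had 9.22, 5.84 and 7.68 in the mutant, against 9.41, 7.20 and 6.94 in Col er-2. Both showed the low mutant replicate 2 seen in AT3G15450.

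**Figure D2:**
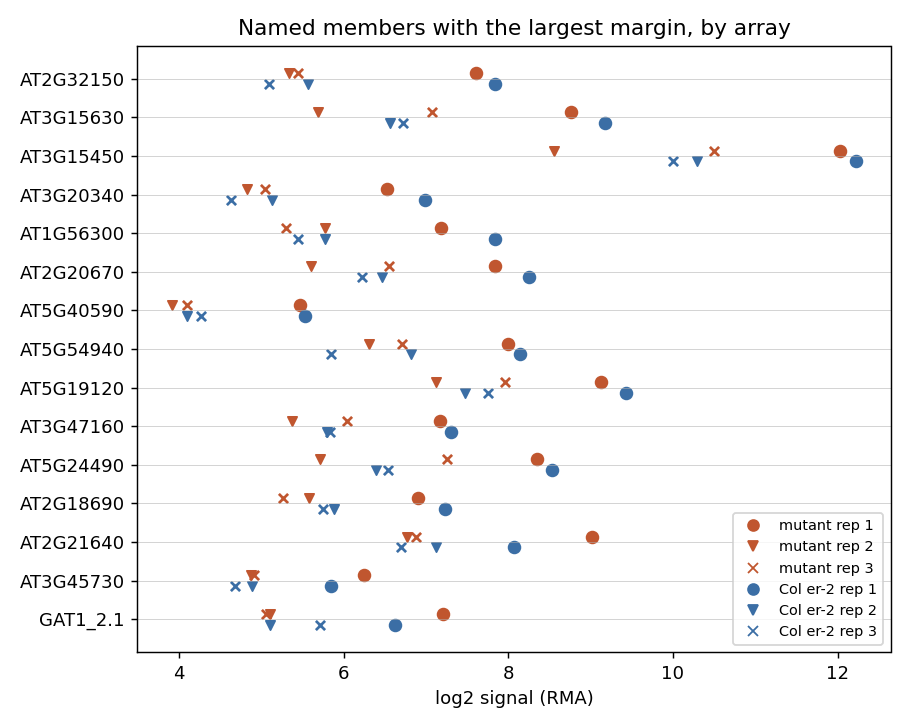
Log2 signal of the 15 named members with the largest gap, mutant arrays in red above Col er-2 arrays in blue in each row. Circles are replicate 1, triangles replicate 2 and crosses replicate 3, and in AT2G21640, AT3G45730 and GAT1_2.1 the mutant circle lies to the right of the Col er-2 circle.

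Members described beyond the 15 named ones of widest gap, the 5 of smallest p by genotype and those at the threshold were chosen after their values were seen. Metabolic enzymes gave 9 named members. GAT1_2.1, a class I glutamine amidotransferase-type enzyme, had 7.21, 5.11 and 5.05 in the mutant, against 6.63, 5.11 and 5.71 in Col er-2. ICL, isocitrate lyase of the glyoxylate cycle, had 7.59, 6.87 and 6.52 in the mutant, against 7.49, 5.92 and 6.83 in Col er-2, with a gap of 0.62. AT1G80380, the glycerate kinase of photorespiration, had a gap of 0.90, and SDH1-2, a flavoprotein subunit of succinate dehydrogenase, had 0.57. Over all 9, AT2G32150 included, the gaps ran from 0.52 to 2.04.

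Genes of redox and mitochondrial stress formed a second group of 4 members. AT2G21640, a marker of oxidative stress in mitochondria, had 9.01, 6.77 and 6.88 in the mutant, against 8.08, 7.12 and 6.70 in Col er-2. AT5G09570, a small twin-cysteine protein of mitochondria, had 10.20, 7.76 and 7.51 in the mutant, against 9.37, 8.63 and 7.83 in Col er-2. Both had the larger excess in the mutant, 2.19 against 1.16 for AT2G21640 and 2.56 against 1.13 for AT5G09570. GRX480, a glutaredoxin that acts with TGA factors, and AT5G17820, a class III peroxidase, had the larger excess in Col er-2. It was 0.89 in the mutant against 1.55 in Col er-2 for GRX480, and 0.96 against 1.92 for AT5G17820.

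Signalling genes were the third group, with 8 members and gaps of 0.52 to 0.73. CML38, a calmodulin-like calcium sensor induced by wounding and low oxygen, had 8.93, 7.48 and 7.77 in the mutant, against 9.73, 8.32 and 6.49 in Col er-2. Col er-2 replicate 3 of CML38 was 1.84 log2 below Col er-2 replicate 2, and mutant replicate 2 was below mutant replicate 3. AT3G15450 had the same order within each genotype, with its wide step on the mutant arrays instead. The VQ-motif genes AT2G22880 and AT5G46780, whose products partner with WRKY factors, had excesses of 0.83 and 0.82 in the mutant, against 1.69 and 1.47 in Col er-2. Others were AT3G11580 (B3 domain), AT2G43140 (bHLH), AT2G36320 (A20/AN1 zinc finger), AT3G59350 (protein kinase family) and AT5G48540 (DUF26). Their excess ran from 0.67 to 1.499 in the mutant and from 0.71 to 1.03 in Col er-2. The set therefore held stress and signalling genes beside its low-sugar markers, and of 51 named members 17 had no role group here. Role groups were counted among members alone. With no share of such genes over all probe sets beside them, the counts do not say that any group is over-represented.

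The members were not equally high in the replicate 1 arrays. Col er-2 replicate 1 was above mutant replicate 1 in 79 of 106 members (74.5%, against 49.7% of all probe sets), and the median difference, mutant minus Col er-2, was -0.19. The excess was larger in Col er-2 in 64 members (60.4% against 51.3%). The replicate 1 arrays differed by less than 0.25 log2 in 51 members. In 7 members Col er-2 replicate 1 was higher by 1 log2 or more, with 262119_s_at at 5.26 in the mutant and 7.36 in Col er-2 as the widest. Mutant replicate 1 was higher by 0.5 or more in 4 members, namely AT2G21640, AT5G09570, AT2G43140 and GAT1_2.1. No replicate stands behind these differences between single arrays, so they were not tested.

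**Figure D3:**
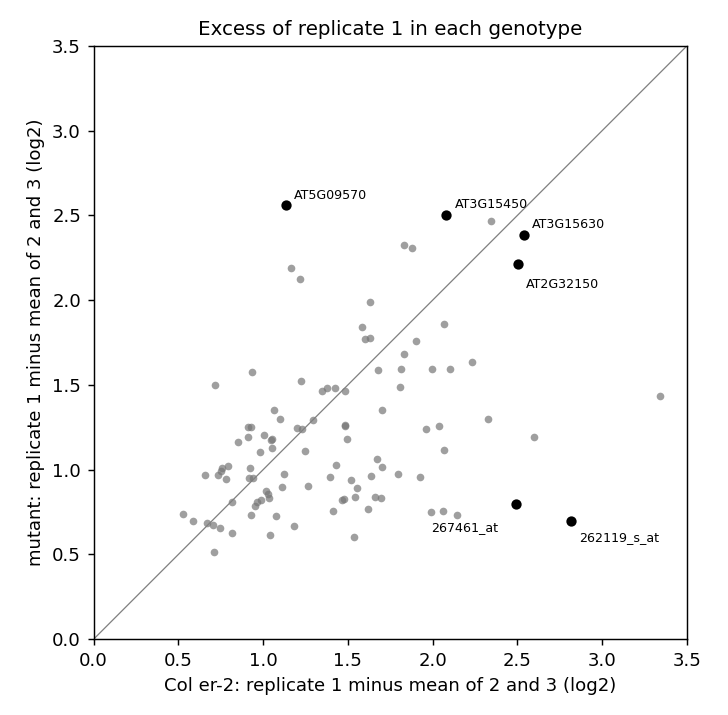
Excess of replicate 1 over the mean of replicates 2 and 3 in the mutant (vertical axis) and in Col er-2 (horizontal axis), in log2, for the 106 members, with equal excess on the line. AT5G09570 lies far above the line at 2.56 in the mutant and 1.13 in Col er-2, and 262119_s_at far below it at 0.70 and 2.82.

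The 4 lower arrays had an order of their own, which the choice of members did not fix. Mutant replicate 2 was the lowest of them in 51 members (48.1%, against 19.6% of all probe sets) and Col er-2 replicate 3 in 35 (33.0% against 25.1%). Mutant replicate 3 was the lowest in 13 (12.3% against 24.9%) and Col er-2 replicate 2 in 7 (6.60% against 30.4%). Mutant replicate 3 was above mutant replicate 2 in 79 members (74.5% against 43.8%), and by 1 log2 or more in 10. Those 10 included AT3G15450, AT3G15630 and AT5G24490, with differences of 1.94, 1.38 and 1.54. Col er-2 replicate 2 was above Col er-2 replicate 3 in 69 members (65.1% against 43.1%), and by 1 or more in 8, CML38 and AR781 among them, with 1.84 and 1.03. Members share arrays and were chosen together, so these shares are descriptions.

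The low-sugar name was checked against 22 lists of pathway and tissue genes, in which 68 of 254 loci could be named on the array. In the sugar starvation and dark-induced list 12 of 37 genes were named and 3 were members, the same 3 that the rule itself names, so their presence is no support for the name. None of the other 9 met the rule, for which the share of all probe sets is 0.470%. AT1G18270, of the class II aldolase family, missed it narrowly with 7.23, 6.49 and 6.74 in the mutant, against 7.497, 6.56 and 6.46 in Col er-2, a gap of 0.49. AT4G27450, a relative of AT3G15450 with the same motifs, had 5.59, 4.61 and 4.98 in the mutant, against 5.44, 4.85 and 4.95 in Col er-2, a gap of 0.46. AKINBETA1, a beta subunit of SnRK1, had a gap of 0.09, with an excess of 0.39 in the mutant and 0.43 in Col er-2. Among the 9 that are no members, 6 had an excess above 0 in both genotypes, against 21.2% of all probe sets. The rule gives the 3 members such an excess, so they are left out of this share. AT3G26510, MYBC1 and AT1G02660 were among the 6, with excesses of 0.16, 0.23 and 0.11 in the mutant and 0.21, 0.62 and 0.61 in Col er-2, and no gap above 0. ATL8, AILP1 and AT5G39520 had dim signals and an excess below 0 in both genotypes, from -0.28 to -0.04 in the mutant and from -0.14 to -0.06 in Col er-2.

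Enzymes of amino acid breakdown had small excesses in the same direction. All 7 named of 20 had an excess above 0 in both genotypes, against 21.2% of all probe sets. Of these, 0 of 7 were members, where 0.470% of all probe sets met the rule. The excess ran from 0.05 to 0.57 in the mutant and from 0.17 to 0.48 in Col er-2. IVD, isovaleryl-CoA dehydrogenase of leucine breakdown, had 8.16, 7.64 and 7.85 in the mutant, against 8.24, 7.77 and 7.74 in Col er-2. MCCA and MCCB, the subunits of methylcrotonyl-CoA carboxylase in the same pathway, had gaps of 0.20 and 0.04, and ETFQO, which passes electrons from this breakdown to the respiratory chain, 0.17. In 6 of the 7 both replicate 1 arrays were above the other 4 by some amount, which held for 6.80% of all probe sets, and D2HGDH was the exception.

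In the autophagy list 13 of 19 genes were named, with 0 members, where 0.470% of all probe sets met the rule. An excess above 0 in both genotypes was found in 9 of the 13, against 21.2% of all probe sets. ATG8A, ATG8F and ATG8E, ubiquitin-like proteins that coat the growing autophagosome, had gaps of 0.31, 0.18 and 0.35, while ATG8G and ATG8I had gaps of -0.17 each. ATG8E signals were dim, between 3.87 and 4.60. The median excess of the list was 0.21 in the mutant and 0.31 in Col er-2, against -0.04 and -0.03 over all probe sets. ATG3, the conjugating enzyme of ATG8, had a gap of -0.13.

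Of 5 named ribosome biogenesis genes, all had an excess below 0 in Col er-2, from -0.54 to -0.12, whereas in the mutant they ran from -0.09 to 0.19. It was below 0 in both genotypes in 3 of the 5, against 38.9% of all probe sets. YAO, a nucleolar protein, had 9.15, 9.20 and 9.16 in the mutant, against 8.55, 8.93 and 9.26 in Col er-2, and PES, a pescadillo homologue, had 11.77, 11.79 and 11.91 in the mutant, against 11.35, 11.65 and 11.52 in Col er-2. APL3, a sugar-induced subunit of ADP-glucose pyrophosphorylase, had an excess of -0.0024 in the mutant and -0.59 in Col er-2. AT5G42740, the other of 2 named sugar-induced genes, was near 0 in both, at 0.03 in the mutant and -0.07 in Col er-2. The bZIP genes BZIP44 and BZIP53 had an excess of -0.24 and 0.32 in the mutant, against -0.10 and 0.14 in Col er-2. RAPTOR1B, the TOR partner, had 0.04 in the mutant and 0.06 in Col er-2. In its list of SnRK1 and TOR subunits, 2 of 4 named genes had an excess above 0 in both genotypes. The other 2 were below 0 in both, AT4G16360 at -0.07 in the mutant and -0.28 in Col er-2, and AT2G28060 at -0.14 and -0.04.

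**Figure D4:**
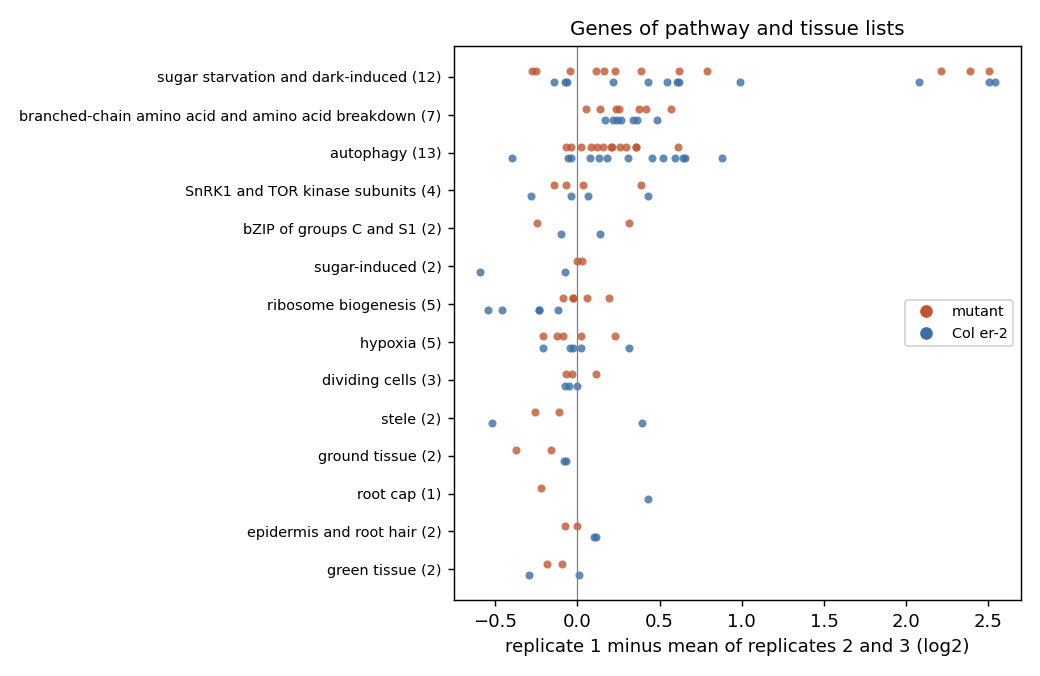
Excess of replicate 1 over the mean of replicates 2 and 3, in log2, for the named genes of 14 lists, mutant in red above Col er-2 in blue, with the number of named genes in brackets. The 3 points at the far right of the sugar starvation list are AT3G15450, AT3G15630 and AT2G32150, and all 7 amino acid breakdown genes lie right of 0 in both genotypes.

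Other stresses and the makeup of the pieces were read the same way, and their part in the height of replicate 1 was not tested. In the hypoxia list 0 of 5 named genes were members, where 0.470% of all probe sets met the rule. PDC2, a pyruvate decarboxylase, had the widest gap of that list, 0.17. However, AT3G10020, a member outside the list, is known to respond to low oxygen. It had 7.60, 6.68 and 6.998 in the mutant, against 8.60, 6.78 and 6.31 in Col er-2. GI, the only clock gene named of 15, had 7.64, 7.16 and 7.13 in the mutant, against 7.53, 7.02 and 6.96 in Col er-2, so both replicate 1 arrays were above the rest by 0.37. The excess of GI was 0.50 in the mutant and 0.54 in Col er-2. ZAT10, the only handling gene named of 14, had 9.50, 9.01 and 8.70 in the mutant, against 9.83, 9.63 and 8.03 in Col er-2. Its excess was 0.65 in the mutant and 1.00 in Col er-2, with a gap of -0.12. AT1G04770, the single gene named of nitrogen and sulfur starvation, had an excess of -0.02 in the mutant and -0.71 in Col er-2. PYE and BHLH101 of iron deficiency had gaps of -0.10 each, and COR47 and COR15A of the abscisic acid list had 0.06 and -0.32.

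Markers of root tissues and of green tissue gave 0 members, where 0.470% of all probe sets met the rule. With so few markers named, this count says nothing of tissue makeup. Of the dividing cell markers 3 of 5 were named, AUR1, AUR2 and MCM7, with signals between 8.60 and 9.16, and their summed level ran from 10.59 to 10.60 log2 on the mutant arrays and from 10.26 to 10.47 on the Col er-2 arrays. The 2 named green tissue genes of 5, RCA and LHCB4.1, lay between 4.79 and 6.06, with a summed level of 6.19 to 6.41 in the mutant and 6.27 to 6.88 in Col er-2, highest on Col er-2 replicate 3. EXPA7 and EXPA18, 2 of 6 root hair markers, lay between 4.08 and 4.82, with sums of 5.42 to 5.47 in the mutant and 5.404 to 5.71 in Col er-2. In the stele list, with 2 of 5 named, the sum was 8.62 on replicate 1 of the mutant against 8.89 and 8.85 on its other arrays, and 8.27 on replicate 1 of Col er-2 against 8.80 and 8.64. LHW, the far brighter of the 2, set that sum, with an excess of -0.26 in the mutant and -0.52 in Col er-2. OPS had an excess of -0.11 in the mutant but 0.39 in Col er-2, so the named stele genes did not move together there. AT1G62500 and JKD of ground tissue, 2 of 4, summed to 8.21 to 8.59 in the mutant and 7.90 to 8.23 in Col er-2, and AT1G65570 of root cap, 1 of 5, lay between 7.95 and 9.19.

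Over the whole series, arrays correlated in pairs at 0.989 to 0.996 with 0 identical pairs, and array medians lay between 5.56 and 5.59. The leading principal component, with 41.4% of the variance, put Col er-2 replicate 1 at -28.1 and mutant replicate 1 at -11.4, while the other arrays ran from -0.96 to 18.5. Of 6 pairs of 3' and 5' control probe sets, 1 had both replicate 1 arrays above all others. That pair, an actin transcript, had a 3' minus 5' difference of 2.78, 2.59 and 2.66 in the mutant, against 2.70, 2.49 and 2.64 in Col er-2, a gap of 0.04. A second actin pair did not share the order, with 1.40, 1.25 and 1.47 in the mutant, against 1.43, 1.32 and 1.35 in Col er-2. The part of these differences in the members' signals was not tested.

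Whether the members differ between genotypes is the comparison the study was built for. With limma on all 6 arrays, 0 of 106 members passed a Benjamini-Hochberg adjusted p under 0.05 over all probe sets, where 0.0264% of all probe sets did. None had an unadjusted p under 0.05, against 7.47% of all probe sets. The rule bears on this: each replicate 1 array stands above the lower arrays of the other genotype, so the genotypes overlap in every member by construction, and the spread within a genotype is wide. The median standard error of a member's difference was 0.45, against 0.10 over all probe sets. The median difference, mutant minus Col er-2, was -0.08 over the members and 0.01 over all probe sets, with 78 members below 0 (73.6% against 47.4%).

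AT3G15450 averaged 10.36 ± 1.74 in the mutant and 10.84 ± 1.21 in Col er-2 (SD, n = 3 each), a difference of -0.48 with a 95% confidence interval of -2.47 to 1.505 (limma adjusted p = 0.942). AT3G15630 averaged 7.17 ± 1.54 in the mutant and 7.49 ± 1.47 in Col er-2, a difference of -0.31 (-2.31 to 1.68). AT2G32150 averaged 6.13 ± 1.28 in the mutant and 6.17 ± 1.46 in Col er-2, a difference of -0.04 (-1.86 to 1.78). With all arrays these intervals span changes of several-fold either way. With replicates 2 and 3 alone they were narrower, at 0.058 (-0.33 to 0.45) for AT2G32150, -0.26 (-1.19 to 0.66) for AT3G15630 and -0.62 (-1.91 to 0.66) for AT3G15450. The direction turned with single arrays left out: AT3G15450 was at 0.42 without mutant replicate 2 and at 0.21 without Col er-2 replicate 1. The rule makes Col er-2 replicate 1 high in every member. Leaving out that array alone therefore raises every member's difference by construction, and leaving out mutant replicate 1 alone lowers it.

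The replicate 2 and 3 arrays alone give a comparison less tied to the rule. Among 2 mutant and 2 Col er-2 arrays, 0 of 106 members passed limma's Benjamini-Hochberg threshold (0.0176% of all probe sets did), and 13 had an unadjusted p under 0.05 (12.3% against 6.15%), 3 higher and 10 lower in the mutant. Both mutant arrays lay below both Col er-2 arrays in 16 members (15.1% against 15.5% of all probe sets) and above them in 7 (6.60% against 19.6%). The difference was below 0 in 59 members (55.7% against 46.0%), and its median was -0.06 over the members, against 0.01 over all probe sets.

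The members with the smallest p over all arrays were lower on average in the mutant. AT3G19390, a cysteine protease with a granulin repeat, had 9.21, 7.82 and 8.08 in the mutant, against 10.12, 8.58 and 8.71 in Col er-2. The genotypes overlapped through mutant replicate 1. The difference was -0.76 with all arrays (95% confidence interval -1.83 to 0.31, limma adjusted p = 0.790) and -0.69 (-0.99 to -0.39, limma adjusted p = 0.263) with replicates 2 and 3 alone, but -0.27 without Col er-2 replicate 1. The probe set 263216_s_at, which matches several genes, had 7.56, 5.41 and 5.73 in the mutant, against 8.32, 6.93 and 6.45 in Col er-2, and 253099_s_at, which also matches several, had 6.87, 5.02 and 5.67 in the mutant, against 7.50, 6.22 and 6.32 in Col er-2. Their differences were -0.996 and -0.83 (limma adjusted p = 0.793 and 0.774), and -0.45 and -0.41 at their smallest with an array left out. AT5G17820 differed by -0.70, and by -0.06 without Col er-2 replicate 1. The unlisted 249890_at differed by -0.64, and by -0.03 without Col er-2 replicate 1. Leaving out Col er-2 replicate 1 raises every member's difference by construction, so these smaller values were partly fixed by the rule.

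Among the 68 list genes, 0 passed the same limma Benjamini-Hochberg test by genotype and 9 had an unadjusted p under 0.05 (13.2%, against 7.47% of all probe sets), with a median difference of 0.04 against 0.01 over all probe sets. All 3 named dividing cell genes were among the 9, each with a higher mean in the mutant: the differences were 0.28 for AUR2, 0.20 for AUR1 and 0.26 for MCM7 (limma adjusted p = 0.528, 0.649 and 0.626). AT1G62500 of ground tissue had the smallest p, with a difference of 0.57 (0.24 to 0.89, limma adjusted p = 0.369). Of the 9, AT3G26510 of the sugar starvation list and AT2G17850 of the hypoxia list were lower in the mutant, at -0.25 and -0.27, and the others were higher. In the sugar starvation list the 12 differences ran from -0.48 to 0.18 with a median of -0.03, and in the amino acid breakdown list the 7 ran from -0.04 to 0.17 with a median of 0.07. ATG8B of the autophagy list averaged 5.62 ± 0.15 in the mutant and 5.16 ± 0.18 in Col er-2 (SD, n = 3 each), a difference of 0.46 (0.19 to 0.73) with a limma adjusted p of 0.388.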

How the data were processed

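Per the submitters' processing notes, Affymetrix Expression Console, RMA and limma were used, without version or role. The authors deposited log2 signals of 22810 probe sets on each array, taken here as RMA values. Quantile normalization would hide a shift of most genes. The 64 controls were dropped and the remainder fitted as mutant minus Col er-2 with limma 3.58.1 (R 4.3.3, lmFit and eBayes), with Benjamini-Hochberg adjustment over all 22746 probe sets. The fit and the rule were tried on simulated data with independent noise on each array. The replicate 1 arrays share variation here that such noise lacks, so the trial gives no support to the set. Groups and replicate numbers came from the labels, and 3 arrays per genotype limit the precision. The design text calls them biological replicates.

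Names came from a partial probe table (13513 probe sets with 1 gene, 503 with several, 8730 unlisted), updated through TAIR10.1, and 6 list symbols not found there are given by locus. A gene with several probe sets was represented by the brightest in the lists. Phosphate starvation, senescence and class II trehalose phosphate synthase lists had 0 named genes. The members, lists and tests were chosen with earlier results of these data known. Named were AT3G15450, AT3G15630 and AT2G32150, the 15 named members of largest gap, members in lists, members past the genotype threshold, the 5 of smallest p, 3 on each side of the threshold, and up to 3 genes per list. Others were chosen after values were seen. Alternatives were other thresholds, scalings, a filter on probe sets under the 35th percentile, each array left out, replicate 1 left out, a replicate block, and trend with robust options. Promoter motifs were not analysed here.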

Additional observations from a re-analysis of the deposited data

How the results depend on the processing

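The rule found 210 members at 0.3 log2 and 19 at 1 log2 by construction. It found 101 after median centring and 99 after repeated quantile normalization, with 100 and 96 shared with the 106. Leaving out an array can only widen a gap or keep it, so all 106 stay by construction. With 1 array left out the rule found 110 to 345, the highest without mutant replicate 1, so mutant replicate 1 limits the set most. List genes that met it were 9 at 0.3 log2 and 3 to 6 with 1 array left out, 6 without mutant replicate 1. With the replicate block 3 of 106 members passed by genotype, all lower in the mutant (2.83%, against 0.479% of all probe sets in either direction), at limma adjusted p of 0.0201 for AT3G19390, 0.0424 for 253099_s_at and 0.0439 for 263216_s_at. The replicate numbers were not taken as pairs: correlations of deviations from the group means between arrays of equal number were 0.504, 0.065 and 0.176, and the best partner of mutant replicate 2 was Col er-2 replicate 3 (0.317). Every other alternative called 0 members, and all called 0 list genes. With 1 array left out, differences ran from -0.78 to 0.80 for AT2G32150, -1.11 to 0.53 for AT3G15630 and -1.32 to 0.42 for AT3G15450. AT2G32150 was at 0.058 without replicate 1 of both genotypes, and at 0.36, 0.30 and 0.80 without mutant replicate 2, mutant replicate 3 and Col er-2 replicate 1. AT3G15630 was at 0.43 and 0.53 without mutant replicate 2 and Col er-2 replicate 1. With 1 array left out, the median difference over members ran from -0.46, without mutant replicate 1, to 0.35, without Col er-2 replicate 1. The rule makes those arrays high, so leaving out either one shifts the differences of all members by construction. What caused the height of replicate 1 was not tested. Of 194 recomputed values, 177 were labelled the same by a loose measure. For single genes this meant the same sign and call, for counts a similar size, and for medians and gaps a shift within the spread between arrays. Counts of 157 and 148 members, without Col er-2 replicate 1 or 2, were among the 177. So were median differences of 0.35 and 0.18, without Col er-2 replicate 1 or mutant replicate 2, whose sign had turned. The planned motif search had no promoter sequences and was not run. Signal limits dim members: 3 of 106 members had a mean signal under the 35th percentile.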
